A study of Mus musculus with 43 samples.

Results

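The 48 genes described here encode developmental regulators of the Pax, Lhx, Irx, Nkx, Dlx and Msx families and Six-family homeobox proteins. They were taken by name, not by a measured value, and were placed on mm10 with GENCODE M21. Earlier results of these data were known when they were chosen. All 48 lay on autosomes (14 chromosomes), and they were compared with the 20807 autosomal protein-coding genes of that annotation. The set holds 9 Pax, 8 Lhx, 5 Six-family, 6 Irx, 11 Nkx, 6 Dlx and 3 Msx genes.

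The cells were mouse embryonic fibroblasts (MEFs) from E13.5 embryos of *domesticus* mothers and *castaneus* fathers. All had been infected with retrovirus for a short hairpin RNA and selected with puromycin. Female cells were Setdb1+/+ Xist∆A/+ with the Nonsilencing hairpin, Setdb1-depleted cells were female Setdb1+/gt Xist∆A/+ with the shSetdb1 hairpin, and male cells were Setdb1+/+ X/Y with the Nonsilencing hairpin. Setdb1 gt is a gene trap present on 1 of the 2 alleles, so these cells keep an intact copy. Xist∆A, which the female and Setdb1-depleted cells share and the male cells lack, makes the other X chromosome the inactive one, and none of the 48 genes is on X. Of the 43 libraries in 18 groups, each of H3K27me3, H3K9me3, H3K9me2 and Setdb1 had 3 female, 2 Setdb1-depleted and 3 male libraries. The deposited lists of peaks were each called on a pool of these libraries. There is therefore 1 list per target and kind of cells, no value below has a replicate error, and no difference between cells was tested.

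H3K27me3 is the mark laid down by Polycomb repressive complex 2, and in differentiated cells it typically lies over regulators that belong to other lineages. It often forms domains that reach well past the gene, and the starts of such genes are usually rich in CpG. H3K9me3 and H3K9me2 mark another kind of silent chromatin, and Setdb1 is an enzyme that methylates H3K9. The label of the cells was checked with marker genes. Of 16 fibroblast markers (among them Col1a1, Col1a2 and Col3a1) and 12 genes used by all cells (among them Actb, Gapdh and Tbp), 0 had a base in any of the 9 histone lists. Of 34 markers of 5 other cell types, 11 likewise had no base in the 3 H3K27me3 lists, so the absence of a peak does not by itself tell fibroblasts from other cells.

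To show the kind of sequence at these starts, RefSeq promoters (GRCm38.p6, the assembly of mm10) are given for genes to which the results below refer. Each runs from 250 bases before to 50 bases after a start, 5′ to 3′, and CpG dinucleotides are in capitals. Lhx1 lay in a wide domain, and Dlx2 was the gene that fell below the 50% line in the male list. Lhx8 was covered, with 4 CpG in this promoter entry and 37 within 500 bases of its annotated start. Pax8, Six4 and Six5 were the genes that did not count as covered.
Lhx1 chr11:84525485-84525784 (- strand): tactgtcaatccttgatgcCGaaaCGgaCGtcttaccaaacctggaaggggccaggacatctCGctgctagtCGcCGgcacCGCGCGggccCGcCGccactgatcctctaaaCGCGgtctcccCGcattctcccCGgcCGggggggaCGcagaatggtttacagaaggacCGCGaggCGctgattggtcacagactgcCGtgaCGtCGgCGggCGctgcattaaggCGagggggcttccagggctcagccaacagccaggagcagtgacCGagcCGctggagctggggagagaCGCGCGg
Dlx2 chr2:71546705-71547004 (- strand): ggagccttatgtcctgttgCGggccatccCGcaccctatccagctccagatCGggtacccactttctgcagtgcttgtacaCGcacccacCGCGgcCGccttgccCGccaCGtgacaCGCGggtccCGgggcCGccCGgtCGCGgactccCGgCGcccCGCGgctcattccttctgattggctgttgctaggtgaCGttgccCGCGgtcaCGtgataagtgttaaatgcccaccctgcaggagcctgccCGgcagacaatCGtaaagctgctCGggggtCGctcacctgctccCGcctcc
Lhx8 chr3:154330511-154330810 (- strand): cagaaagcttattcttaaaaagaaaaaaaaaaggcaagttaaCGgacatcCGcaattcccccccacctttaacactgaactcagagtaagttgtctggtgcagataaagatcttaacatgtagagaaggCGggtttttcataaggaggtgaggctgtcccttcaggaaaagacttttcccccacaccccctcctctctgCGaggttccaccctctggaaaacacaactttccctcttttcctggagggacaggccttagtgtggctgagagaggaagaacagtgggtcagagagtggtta
Pax8 chr2:24475550-24475849 (- strand): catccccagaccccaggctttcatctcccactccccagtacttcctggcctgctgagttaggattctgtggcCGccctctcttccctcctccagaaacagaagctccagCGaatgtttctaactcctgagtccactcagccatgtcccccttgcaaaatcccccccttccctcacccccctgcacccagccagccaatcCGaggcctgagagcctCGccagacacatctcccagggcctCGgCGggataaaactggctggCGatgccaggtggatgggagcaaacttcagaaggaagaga
Six4 chr12:73113376-73113675 (- strand): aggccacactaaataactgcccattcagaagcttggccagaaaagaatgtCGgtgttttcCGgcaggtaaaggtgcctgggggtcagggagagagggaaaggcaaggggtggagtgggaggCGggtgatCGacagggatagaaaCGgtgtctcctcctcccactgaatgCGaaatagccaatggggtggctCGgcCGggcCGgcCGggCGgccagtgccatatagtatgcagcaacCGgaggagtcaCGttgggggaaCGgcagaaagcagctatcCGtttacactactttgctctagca
Six5 chr7:19094294-19094593 (+ strand): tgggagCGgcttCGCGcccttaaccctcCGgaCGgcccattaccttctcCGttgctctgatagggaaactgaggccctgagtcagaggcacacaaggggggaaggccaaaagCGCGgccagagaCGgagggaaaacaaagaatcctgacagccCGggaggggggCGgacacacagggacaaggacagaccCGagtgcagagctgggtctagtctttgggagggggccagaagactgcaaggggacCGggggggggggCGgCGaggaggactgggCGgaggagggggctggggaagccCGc
These 6 promoters held 31, 29, 4, 7, 15 and 17 CpG in that order, against a median of 7 over the 32851 promoters of the table. The entry of Lhx8 starts 99 bases from the start of the gene in GENCODE, that of Six5 50 bases and that of Six4 31 bases, and the other 3 lie within 1 base. Of the 48 genes, 36 had an entry, and Pax3, Pax4, Lhx5, Irx1, Irx5, Irx6, Nkx2-6, Nkx6-3, Dlx3, Dlx4, Dlx5 and Dlx6 had none.

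H3K27me3 covered nearly the whole set in each kind of cells, and H3K9 methylation touched none of it. A gene was counted as covered when at least 50% of its body lay in peaks. In female cells 45 of the 48 genes were covered, whereas 13.8% of all coding genes were. In Setdb1-depleted cells 45 were covered, with 11.9% of all coding genes. In male cells 44 were covered, with 12.8% of all coding genes. The median gene of the set had 100% of its body in peaks in each list, and the median of all coding genes was 0%. For 37 of the 48 genes the entire body was inside H3K27me3 peaks in all 3 lists. Body lengths in the set ran from 1.90 to 186 kb (median 6.51 kb), and among the 18440 coding genes of that range the female, Setdb1-depleted and male lists covered 14.0%, 12.1% and 13.1%. The map of domains around each start shows these extents gene by gene.

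**Figure D1:**
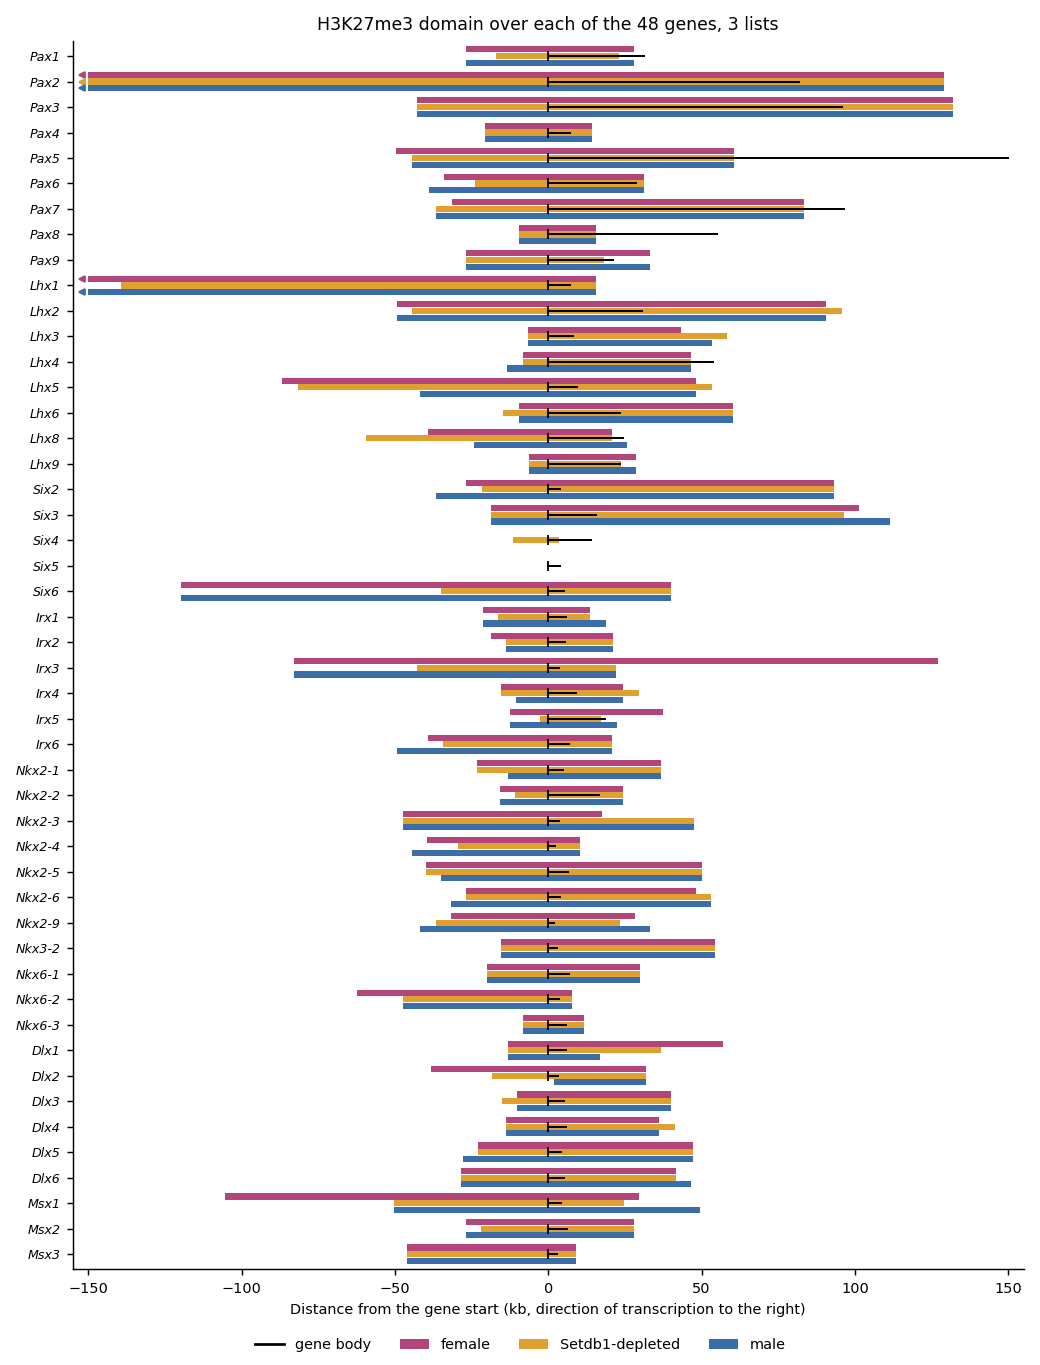
H3K27me3 domain over each of the 48 genes in the female, Setdb1-depleted and male lists, as distance from the gene start in kb with transcription to the right. Black lines are gene bodies; arrowheads mark domains of Pax2 and Lhx1 that go on past 150 kb, and the body of Pax5 (186 kb) is cut at 150 kb. Six5 has no bar, Six4 has a bar only in the Setdb1-depleted list, and the male bar of Dlx2 begins after its start.

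Among the Pax genes, whose paired-domain proteins act in eye, ear, kidney, muscle, pancreas and B cells, 8 of 9 were covered in every list. Pax2, a regulator of kidney and ear, lay in a domain of 305 kb in all 3 lists (chr19:44580001-44885000), with the same limits in each. Pax3, which acts in neural crest and muscle precursors, lay in a domain of 175 kb in each list. Both genes were wholly covered, as were Pax4 and Pax6, regulators of pancreas and eye. Pax7, the partner of Pax3 in muscle stem cells, was covered over its first 83.5 kb of 96.5 kb in all 3 lists. Pax5, the regulator of B-cell identity and the longest gene of the set, was covered over 83.7%, 70.3% and 78.3% of its body in the female, Setdb1-depleted and male lists. The first 60.5 kb of Pax5 were in 1 domain in each list, and the rest was covered by 3 separate domains in female and male cells and 2 in Setdb1-depleted cells. Pax1, which patterns the vertebral column, was covered over 89.5%, 73.6% and 89.5% of its body in the female, Setdb1-depleted and male lists. Pax9, its close relative, was covered over 100%, 86.6% and 100%. In each of these partly covered genes the start was inside the domain.

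Pax8, a regulator of thyroid and kidney, was the Pax gene that did not count as covered. The same peak of 25 kb (chr2:24460001-24485000) was in all 3 lists and held the first 15.6 kb of its 55.0 kb, which is 28.3% of the body. Its start was thus inside H3K27me3 in each kind of cells, and it was the 50% line that left it out.

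All 8 Lhx genes, which encode LIM-homeodomain proteins of the nervous system, pituitary, limb and gonad, were covered in every list. Lhx1, which acts in the head organiser and the kidney, lay in a domain of 285 kb in the female, 155 kb in the Setdb1-depleted and 240 kb in the male list. The narrower widths came from a gap, since 96.5% of the female domain was still inside peaks of the Setdb1-depleted list and 98.2% inside peaks of the male list, in 2 pieces each. Most of the female domain lay upstream, 269 kb before the start against 15.5 kb after it. Lhx2, a regulator of forebrain, eye and limb, had a domain of 140 kb in each list. Lhx5, another forebrain gene, had 135, 135 and 90 kb in the female, Setdb1-depleted and male lists. Lhx4 was covered over 87.0% of its body in each list, and Lhx8, which acts in forebrain neurons, over 84.8%, 84.8% and 100%. The domain of Lhx8 was 60 kb wide in the female, 80 kb in the Setdb1-depleted and 50 kb in the male list. Lhx9 had the narrowest domains of the family, at 35, 30 and 35 kb.

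The Six-family genes, homeobox regulators of eye, kidney and muscle, held the other exceptions, with 3 of 5 covered in every list. Six2, which maintains nephron progenitors, and Six3, a forebrain and eye regulator, shared 1 domain of 120 kb in the female, 115 kb in the Setdb1-depleted and 130 kb in the male list. Six6, which acts in the retina and pituitary, lay in a domain of 160 kb in female and male cells and of 75 kb in Setdb1-depleted cells, where 78.1% of the female domain was still in peaks. Six4, a regulator of muscle precursors, had 0% of its body in female and male peaks. In the Setdb1-depleted list a peak of 15 kb (chr12:73110001-73125000) held the start and the first 3.46 kb of Six4, or 24.96% of the body. The nearest domain was 48.5 kb from its start in female and 43.5 kb in male cells. Six5 had 0% in each list, and the nearest domain was at least 60.4 kb from its start.

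All 6 Irx genes, which pattern heart, limb and neural tube, were covered in every list, and this family held the strongest narrowing in Setdb1-depleted cells. Irx3 lay in a domain of 210 kb in the female, 65 kb in the Setdb1-depleted and 105 kb in the male list. Of the 210 kb, 47.6% were in Setdb1-depleted peaks and 92.9% in male peaks. Irx5, the neighbour of Irx3 on chromosome 8, had 50, 20 and 35 kb, and 40% of its female domain was in Setdb1-depleted peaks. The body of Irx5 was nevertheless covered over 100%, 93.1% and 100%. Irx6, the third gene of that cluster, had 60, 55 and 70 kb. The cluster on chromosome 13 had narrow domains that changed little in width, with 35, 30 and 40 kb over Irx1, 40, 35 and 35 kb over Irx2, and 40, 45 and 35 kb over Irx4.

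All 11 Nkx genes, which act in heart, thyroid, lung, pancreas, gut and ventral neural tube, were wholly covered in every list. Their median domain width was 60 kb in the female, 60 kb in the Setdb1-depleted and 55 kb in the male list. Nkx2-5, a cardiac regulator, had domains of 90, 90 and 85 kb. Nkx2-1, needed for thyroid and lung, had 60, 60 and 50 kb, and Nkx2-2, which acts in pancreas and ventral neural tube, had 40, 35 and 40 kb. Nkx2-3, a regulator of spleen and gut, had a wider domain outside female cells, with 65 kb in female cells and 95 kb in both other lists. Nkx6-3 had a domain of 20 kb with the same limits in each list, the narrowest of the covered genes in female and male cells and level with Irx5 in Setdb1-depleted cells.

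The 6 Dlx genes, regulators of face, limb and forebrain interneurons, lie as 3 convergent pairs, and each pair shared 1 domain in every list. Dlx5 and Dlx6 shared 70, 70 and 75 kb, and Dlx3 and Dlx4 shared 50, 55 and 50 kb in the female, Setdb1-depleted and male lists. The pair of Dlx1 and Dlx2 shared 70 kb in the female, 50 kb in the Setdb1-depleted and 30 kb in the male list. The female domain (chr2:71515001-71585000) ran past both genes, and the male domain ended at position 71545000, inside Dlx2. Dlx2 was therefore covered over 100%, 100% and 47.6%, its start was outside the male peak, and it was the one gene of the set whose side of the 50% line differed between lists. Dlx1 stayed wholly covered. The male value of Dlx2 is close to the line, and the lists give positions in steps of 5 kb. Among the 3 Msx genes, which act in limb and face, Msx1 had 135, 75 and 100 kb, Msx2 had 55, 50 and 55 kb and Msx3 had 55 kb in each list.

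The 48 genes lay in 42 female domains, since 4 of these held a pair of them (Six2 with Six3, Dlx1 with Dlx2, Dlx3 with Dlx4 and Dlx5 with Dlx6), and Six4 and Six5 had none. In 35 of the 42 domains no other coding gene had at least 50% of its body inside. The median width over the covered genes was 65 kb in the female, 60 kb in the Setdb1-depleted and 65 kb in the male list. All covered coding genes had medians of 55, 45 and 55 kb, and all autosomal domains had a median of 25 kb in each list. The 5 widest female domains were those of Pax2, Lhx1, Irx3, Pax3 and Six6. The domain of Pax2 ranked 18 and that of Lhx1 ranked 22 among 6741 autosomal female domains. From the start of the gene the female domain reached a median of 26.9 kb upstream and 34.7 kb downstream.

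In both other kinds of cells the set kept its H3K27me3 more often than coding genes at large. Of the 45 genes covered in female cells, 0 were uncovered in Setdb1-depleted cells, whereas 27.6% of the 2879 coding genes covered in female cells were. In male cells 1 of the 45 (Dlx2) was uncovered, whereas 24.5% of the 2879 were. No gene of the set was gained in either list, but only 3 (Pax8, Six4 and Six5) were uncovered in female cells and could be. Of all coding genes uncovered in female cells, 2.18% (Setdb1-depleted) and 2.78% (male) were gained. The count of 0 of 3 is near that background and is not a result about the set. Both comparisons use the same female list. The H3K27me3 lists hold 7293 female, 6259 Setdb1-depleted and 6745 male autosomal peaks, so losses and narrower domains in Setdb1-depleted cells go with a shorter list. Wide domains were lost less often over all coding genes, so the set was also read by width. In female domains of 50 to 95 kb, 0 of 26 genes of the set and 21.99% of 964 coding genes were uncovered in Setdb1-depleted cells, and 1 of 26 and 19.4% in male cells. In domains of 100 kb or more, 0 of 12 genes of the set were uncovered in either list, against 18.2% and 14.5% of 650 coding genes. These shares are descriptions of single pooled lists and were not tested.

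The bases of the domains gave the same picture. The 42 female domains spanned 3575 kb, of which 90.5% were in Setdb1-depleted and 95.5% in male peaks. Over all 6741 autosomal female domains these shares were 62.7% and 67.2%. Over the 701 other domains that held a covered coding gene and were at least 60 kb wide, which is the median of the 42, the shares were 80.78% and 85.03%. None of the 42 domains was wholly missing from another list, whereas 40.7% of all female domains were missing from the Setdb1-depleted and 38.5% from the male list, and 4.56% and 5.28% of the 701. Read from the other side, 96.1% of the bases of the 43 Setdb1-depleted domains over the set and 95.8% of those of the 42 male domains were in female peaks, against 81.1% and 74.7% over all domains of those lists.

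**Figure D2:**
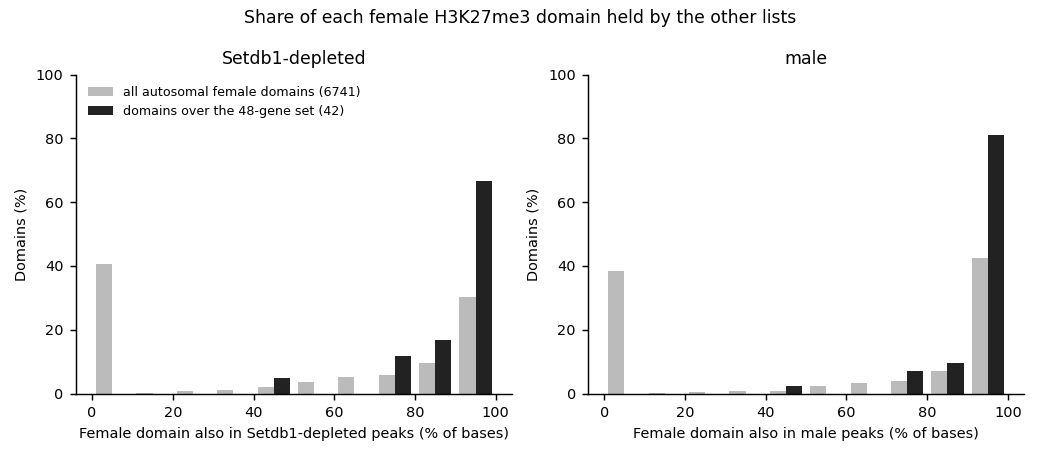
Share of the bases of each female H3K27me3 domain that is also in peaks of the Setdb1-depleted list (left) and the male list (right), as the percentage of domains in steps of 10%. Black bars are the 42 domains over the set and grey bars all 6741 autosomal female domains; no black bar stands below 40%, while 40.7% and 38.5% of all domains have no base in the other list.

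Widths differed between lists for more genes than the covered share did. In Setdb1-depleted cells 4 genes had a lower share of the body in peaks than in female cells (Pax1, Pax5, Pax9 and Irx5) and 1 a higher share (Six4), and in male cells 2 had a lower share (Pax5 and Dlx2) and 1 a higher share (Lhx8). Of the 45 genes covered in female and Setdb1-depleted cells, 21 had a narrower domain in Setdb1-depleted cells, 15 an equal and 9 a wider one. Among all coding genes covered in both lists 47.2% had a narrower and 12.4% a wider domain, and the share of narrower domains in the set is close to that background. The ratio of widths in the set ran from 0.310 (Irx3) to 1.46 (Nkx2-3), with a median of 1. Of the 44 genes covered in female and male cells, 13 had a narrower domain in male cells, 17 an equal and 14 a wider one, and 33.9% and 21.2% of all coding genes covered in both were narrower and wider. The plot of widths shows the few genes far from the line.

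**Figure D3:**
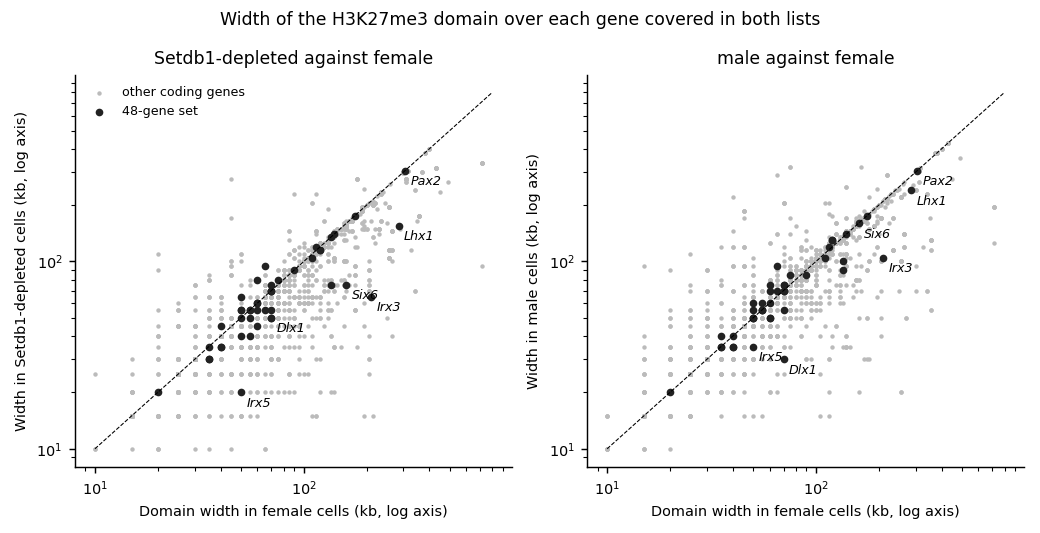
Width of the H3K27me3 domain over each gene covered in both lists, in kb on log axes, female cells on the x axis and Setdb1-depleted (left) or male cells (right) on the y axis. Black points are genes of the set, grey points other coding genes, and the dashed line marks equal widths; Irx3 (210 kb against 65 kb) and Irx5 (50 kb against 20 kb) lie farthest below it on the left, and Dlx1 with Dlx2 (only Dlx1 covered in male cells) at 30 kb on the right.

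H3K9 methylation was absent from the set in these lists. No base of any of the 48 bodies was in a peak of the 3 H3K9me3 or the 3 H3K9me2 lists. At least 50% of the body was in H3K9me3 peaks for 2.85%, 2.53% and 2.88% of all coding genes in the female, Setdb1-depleted and male lists, and in H3K9me2 peaks for 0.971%, 0.673% and 1.12%. At least 1 base was in H3K9me3 peaks for 7.73%, 5.12% and 7.31% of them, and in H3K9me2 peaks for 2.71%, 1.87% and 2.74%. At 50% of the body, a count of 0 among 48 genes is near the background and is not a result about the set. For the count with at least 1 base, the set had shorter bodies than all coding genes (median 6.51 against 17.6 kb). The other homeobox, Hox and signal genes described below likewise had no base in H3K9 peaks. Of the 76 Tbx, Gata, Sox and Fox genes, 3, 0 and 2 had a base in H3K9me3 peaks and 0, 1 and 1 in H3K9me2 peaks. Of the 21 cofactors, 1, 1 and 0 had a base in H3K9me3 peaks and 0 in H3K9me2 peaks of each list. Among coding genes covered by H3K27me3, 5.97%, 3.96% and 7.33% had a base in H3K9me3 peaks of the same cells. The median distance from a body of the set to the nearest H3K9me3 peak was 314 kb in the female, 635 kb in the Setdb1-depleted and 351 kb in the male list, and over all coding genes it was 215, 529 and 263 kb. Over the coding genes covered by H3K27me3 it was 313, 820 and 390 kb, close to the set in female cells and farther than the set in both other lists. The longer distances in Setdb1-depleted cells go with a shorter list, of 3467 autosomal H3K9me3 peaks against 5820 in female and 5217 in male cells.

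H3K9me3 came within 50 kb of 3 or 4 of these genes in each list. In female cells these were Lhx9 (11.4 kb), Msx3 (16.2 kb), Nkx2-2 (32.5 kb) and Nkx2-4 (49.6 kb), which is 8.33% of the set, against 23.4% of all coding genes and 16.8% of those covered by H3K27me3. In Setdb1-depleted cells they were Msx3 (21.2 kb), Nkx2-9 (26.4 kb) and Nkx2-1 (38.1 kb), which is 6.25% of the set, against 14% of all coding genes and 8.32% of those covered. In male cells they were Nkx2-5 (3.66 kb), Msx3 (16.2 kb), Lhx9 (16.4 kb) and Pax5 (39.8 kb), which is 8.33%, against 20.5% and 15.6%. For H3K9me2, only Nkx2-6 in male cells had a peak within 50 kb, at 6.80 kb, and 6.8% of all coding genes had one in that list. In the female and Setdb1-depleted lists 0 genes of the set had one, against 6.88% and 5.14% of all coding genes. Of the coding genes covered by H3K27me3, 7.92%, 6.18% and 9.47% had one in the female, Setdb1-depleted and male lists. These counts in the set are small and were not tested. Msx3, a regulator of the dorsal neural tube, was thus the gene with H3K9me3 nearby in every list.

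Within 10 kb of a body there was a Setdb1 peak at 1 gene of the set in each list, or 2.08%, and such a peak was near 3.13%, 0.995% and 7.57% of all coding genes in the female, Setdb1-depleted and male lists. The female and Setdb1-depleted counts are near the background and are not a result about the set. The male share was below its background, but it rests on 1 gene and was not tested. The median pileup over all peaks of the lists was 7, 8 and 6 reads. The lists hold 1250, 418 and 3310 peaks, from 18134299, 14405821 and 12320583 reads after down-sampling. In female cells the gene was Lhx8, with a peak in an intron 9.99 kb after its start, a pileup of 7 reads, a −log10 p of 4.99 and a −log10 q of 0.147. In Setdb1-depleted cells it was Lhx2, with a peak in an intron 16.6 kb after its start, a pileup of 6 and a −log10 p of 4.08. In male cells it was Nkx6-2, a regulator of oligodendrocytes and ventral neural tube, with a peak in an untranslated part of an exon 1.86 kb after its start, a pileup of 4 and a −log10 p of 3.26. The −log10 q of the last 2 was 0, so none of the 3 passed a q of 0.05, and no gene had a peak in more than 1 list. For Setdb1-depleted cells the header of the list names the Nonsilencing hairpin and the labels name shSetdb1, so the hairpin behind that peak is uncertain.

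The intronic peaks are given to show what lies under them, with CpG in capitals.
Lhx8 chr3:154320618-154320718 (+ strand): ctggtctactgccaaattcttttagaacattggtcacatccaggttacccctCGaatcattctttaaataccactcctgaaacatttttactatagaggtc
Lhx2 chr2:38355780-38355913 (+ strand): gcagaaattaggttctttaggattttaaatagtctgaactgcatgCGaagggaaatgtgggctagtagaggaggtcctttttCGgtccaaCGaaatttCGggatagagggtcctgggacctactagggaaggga
They held 1 CpG in 101 bases and 4 CpG in 134 bases. The middle 50 bases of each of the 3 peaks occurred once in the assembly, no base of the 3 was soft-masked as a repeat, and all 3 lay wholly inside H3K27me3 peaks of the same cells and outside H3K9me3 and H3K9me2 peaks. Within 50 kb the male list held 6 further genes (Lhx1, Lhx8, Six2, Irx2, Irx5 and Dlx3), and the female and Setdb1-depleted lists none. This makes 14.6%, 2.08% and 2.08% of the set in the male, female and Setdb1-depleted lists, against 16%, 6.61% and 2.24% of all coding genes, and the male list is the longest. The strongest of these peaks lay 17.9 kb downstream of Irx5 with a −log10 p of 7.52 and a −log10 q of 2.81, and 100% of its bases were soft-masked as a repeat.

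The starts of the set were rich in CpG, and CpG alone did not separate covered from uncovered genes. Within 500 bases of the annotated start the 48 genes had a median of 57 CpG, and all coding genes had 43. The 45 genes covered in female cells had a median of 57, whereas all 2879 covered coding genes had 27 and the 17928 uncovered ones 45. Among the genes of the set, Six5 had 100 CpG and was uncovered in every list, while Irx2 (124), Six2 (119) and Irx1 (111) had more and Nkx6-2 (100) had as many and were covered. Six4 had 47 CpG and Pax8 had 18. Pax4 (3) and Lhx4 (7) had the fewest and were covered. The annotated start can lie some distance from the promoter in use, as for Lhx4, whose RefSeq promoter starts 9657 bases away. Over all coding genes with 80 or more CpG 8.75% were covered in female cells, and of the 10 genes of the set in that class 9 were.

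**Figure D4:**
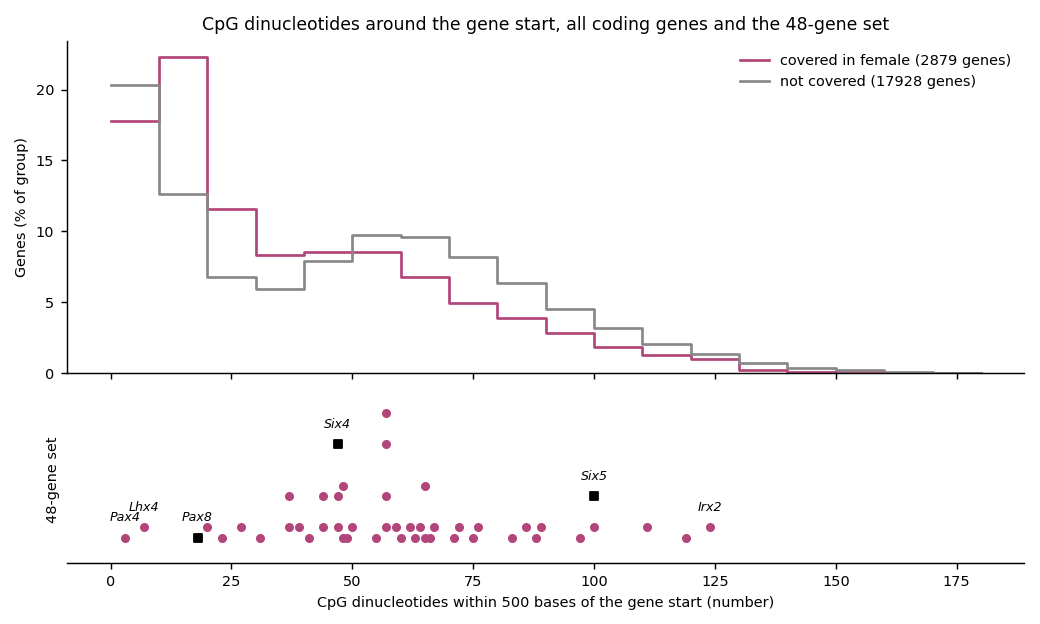
CpG dinucleotides within 500 bases of the gene start. The upper panel gives the percentage of the 2879 coding genes covered by H3K27me3 in female cells and of the 17928 uncovered ones in steps of 10 CpG, and the lower panel has a point for each of the 48 genes, stacked where values are close (circles covered, squares uncovered). Six5 stands at 100 and Six4 at 47 among covered genes, and most of the set lies to the right of the peak of covered coding genes.

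Other homeobox regulators were covered about as often as the set, and cofactors of the set about as seldom as coding genes at large. Of 42 other homeobox regulators (such as Otx1, at 100% in each list, and Cdx1, at 35.4%), 37 were covered in the female, 37 in the Setdb1-depleted and 38 in the male list. Of 39 Hox genes 38, 37 and 36 were covered, in domains with a median of 283 kb in female cells, which whole clusters share. Of 76 Tbx, Gata, Sox and Fox genes 42, 42 and 40 were covered. The proteins with which the set works at DNA, such as the Eya coactivators, the Ldb and Lmo proteins of the LIM-homeodomain complexes and the Pbx, Meis and Tle cofactors, had 2, 1 and 2 of 21 genes covered, which is 9.52%, 4.76% and 9.52%, against 13.8%, 11.9% and 12.8% of all coding genes. These are long genes, with a median body of 139 kb. At least 1 base was in peaks for 11, 9 and 9 of the 21. This is a higher share than the 25.5%, 22.8% and 23.6% of all coding genes. Among the cofactors Eya2 was covered over 84.9%, 99.0% and 93.4% of its body, and Eya1 over 7.24%, 0% and 0%. Of 16 signals that induce these genes, such as Shh, at 100% in each list, and Bmp5, at 0%, 12 were covered in the female, 12 in the Setdb1-depleted and 9 in the male list. None of the genes of these 5 lists was covered by H3K9me3 or H3K9me2 in any list. The lists were drawn up with earlier results of these data known. They differ in the length of their genes, and the differences between them were not tested.

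**Figure D5:**
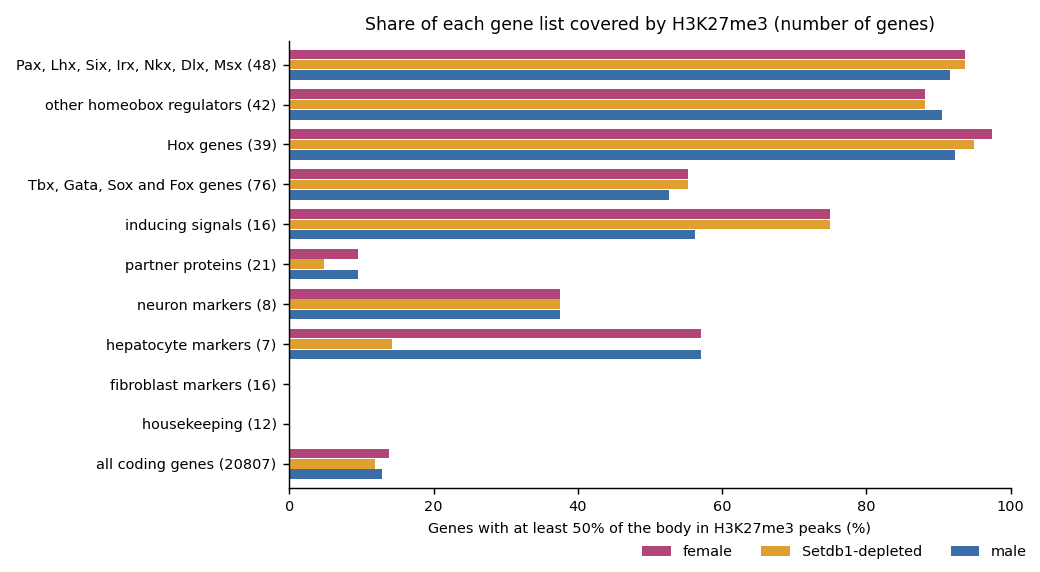
Percentage of the genes of each list with at least 50% of the body in H3K27me3 peaks in female, Setdb1-depleted and male cells, with the number of genes in parentheses. The set (93.8%, 93.8% and 91.7%) stands beside other homeobox and Hox genes, above cofactors, and far above all coding genes (13.8%, 11.9% and 12.8%); fibroblast markers and genes used by all cells are at 0%.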

How the data were processed

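ChIP-seq libraries of H3K27me3, H3K9me3, H3K9me2, Setdb1, H3 and whole cell extract from female, Setdb1-depleted and male MEFs had been aligned by the authors with Bowtie2 to mm10 and pooled by group before peaks were called. The labels' extraction protocol names NSCs, whereas titles and sources name MEFs, which were taken as right. The histone lists were called by the authors in Seqmonk (MACS method, 10 kb fragments, p under 1e-05, H3 as control) and hold positions on a 5 kb grid, at least 10 kb wide, with no score for the mark. They also hold log2 H3 reads in each peak, which the authors scaled to the deepest H3 pool. Relative to the female H3 pool, depth was 61.6% for the Setdb1-depleted and 71.8% for the male H3 pool. The depth of the mark libraries is not given in the sources used here. The Setdb1 lists are from MACS2 2.1.0.20140616 run by the authors (p under 0.001, down-sampled). Per the file headers they give the pileup, a coverage signal, the fold enrichment, which is a ratio, and p-values and q-values as −log10. Down-sampling left different depths, and the male list, with the fewest reads (12320583), holds the most peaks (3310). Any of the lists may miss peaks, and the effect of depth was not tested.

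Genes came from GENCODE M21, with 20807 protein-coding genes on 19 autosomes. Touching peaks were joined into domains. The share of each body in peaks, the width of the domain with the most bases of the body, and Setdb1 peaks within 10 kb were computed in Python 3.11.15 (pandas 2.3.3, numpy 2.4.6, scipy 1.17.1, matplotlib 3.10.9), and the interval code was tested on simulated data. The genes of the set and all other lists were chosen with earlier results of these data known. Genes named with values were those uncovered, those that differ between lists, those with H3K9 methylation or Setdb1 nearby, those in the 5 widest domains and those that share a domain, and further genes are named as examples of their family, chosen after their values were seen. Of the cofactor, signal and other homeobox lists, the first covered and the first uncovered gene in the order of the list is named, and of marker lists the first 3. Alternatives were another share of the body, the gene start, wider peaks, equal numbers of peaks, joined or separate peaks, and other distances and thresholds for Setdb1. There are 0 columns for single libraries, and no test between cells was run.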

Additional observations from a re-analysis of the deposited data

How the results depend on the processing

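No paired analysis was possible because each deposited list was called on pooled libraries, and leaving out a library was not possible for the same reason. Of 93 alternative values for 22 results, 80 kept within 1.5 times the count reported or within the 95% interval of a median or share, and 13 moved. The counts of genes covered by H3K27me3 and the counts of 0 for both H3K9 marks kept within that range under all 6 alternatives (at least 1 base, at least 90% of the body, the start, 5 kb added on both sides, peaks of at least 20 kb, and equal numbers of widest peaks). With at least 1 base, 1 gene (Six4) was gained in Setdb1-depleted cells and 0 were lost in male cells, because Dlx2 still touches its male peak. With the gene start, 1 gene (Six4) was likewise gained in Setdb1-depleted cells. Joining peaks up to 10 kb apart gave a median domain of 77.5 kb in male cells. For Setdb1, 0 genes had a peak within 10 kb in the female, Setdb1-depleted and male lists at a −log10 p of at least 5 and at a q under 0.05. With the 337 strongest autosomal peaks of each list, 0 remained in female and male cells. Within 50 kb, 7 genes had a peak in male cells. Taking coding genes of the set's length range as background was chosen after seeing the data and changed no share beyond its interval. The absence of H3K9 methylation is the absence of a called peak, since the lists hold no level of the mark.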

Other observations

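Among the 16 signals that induce the 48 regulators, Bmp2, Bmp4 and Nog were covered over 100% of their bodies in the female and Setdb1-depleted lists, with 0% in the male list. The domain of Bmp2 was 80 kb wide in female and 35 kb in Setdb1-depleted cells, that of Bmp4 125 and 165 kb, and that of Nog 20 and 15 kb. They are 3 of the 12 signals covered in female cells, or 25%, and 24.5% of all coding genes covered in female cells were uncovered in male cells. These genes were named after their values were seen, the difference rests on 1 pooled list per kind of cells, and it was not tested.

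Among the cofactors, Lmo2, a LIM protein that acts in blood, was covered over 100%, 0% and 100% of its body in female, Setdb1-depleted and male cells. It was chosen after its values were seen. Of 7 hepatocyte markers 4, 1 and 4 were covered, with Ttr and Apoa1 at 100%, 0% and 100%. Over all coding genes covered in female cells, 27.6% were uncovered in Setdb1-depleted cells. None of the 48 regulators showed such a loss in Setdb1-depleted cells.

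Total H3 over the regulators was read from the 3 pools, with no test. Over the 46 female H3K27me3 peaks that touch the covered genes, the medians of the female, Setdb1-depleted and male pools were 21.3, 21.2 and 21.4 scaled H3 reads per kb. The median log2 difference from female was −0.03 in Setdb1-depleted and 0.03 in male pools.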
